A study of Homo sapiens with 3 samples.

Results

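Peaks at the ends of protein-coding genes were the peaks of the smoke and air lists whose summit, the deposited highest point of the peak, lay within 1000 bp of either end of a protein-coding gene span. They were 380 of 23975 smoke peaks and 505 of 27010 air peaks, 885 of 50985 in all. Both lists came from UM-UC-3, an established human bladder (urothelial) carcinoma line, profiled with an antibody to histone H2A acetylated at lysine 130. The smoke library was labelled as cells kept in 10% cigarette smoke media for 3 days and the air library as air-exposed cells. The text on the smoke medium stood on both libraries and on the input, so the smoke group rests on its treatment label. Each group was 1 library of 1 line, no file of the input was used, and no comparison below has a replicate check or a p-value. Intervals are 95% intervals, Wilson for shares and exact Poisson for counts and densities, and cover counting error only.

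Acetylation removes the positive charge of a lysine and loosens its hold on DNA, and proteins with bromodomains can read it. Lysine 130 lies at the very end of the C-terminal tail of H2A, a tail that leaves the nucleosome close to where the DNA enters and exits. The well-known acetylation marks of H3 and H4 sit on the nucleosomes that flank the start site of an active gene. A gene's 5′ end is where its transcription starts, and its 3′ end is where the annotated transcript stops. Strand was known for 15812 of 19974 protein-coding genes, so the split into 5′ and 3′ ends was made for those. The other 4162 genes had ends of unknown strand.

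The promoter sequences shown first lay under start-site peaks, chosen as described next, and include peaks of modest strength. They are the 250 bases upstream of the start in RefSeq's GRCh38.p14, 5′ to 3′ on the gene's strand, with the bases under the peak in capitals. Only upstream stretches free of any annotated gene and with at least 100 bases under the peak were eligible, 17 in smoke and 21 in air. The 4 of highest −log10 q (the authors' q-value on a negative log scale, larger being stronger) in each library are printed. The smoke promoters belonged to RSU1, an adhesion protein that counters Ras signalling, GLRA1, a glycine receptor subunit, SEPTIN7, a septin of the cytoskeleton, and SPIC, an ETS-family transcription factor.
RSU1, chr10:16817425-16817674, minus strand: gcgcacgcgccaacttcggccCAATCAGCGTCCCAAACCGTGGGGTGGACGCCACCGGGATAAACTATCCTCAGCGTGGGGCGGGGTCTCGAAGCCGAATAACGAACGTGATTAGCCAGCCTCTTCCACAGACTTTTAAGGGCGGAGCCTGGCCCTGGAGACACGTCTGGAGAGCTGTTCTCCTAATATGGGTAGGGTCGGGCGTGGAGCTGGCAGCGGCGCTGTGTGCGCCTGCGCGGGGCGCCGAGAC
GLRA1, chr5:151924852-151925101, minus strand: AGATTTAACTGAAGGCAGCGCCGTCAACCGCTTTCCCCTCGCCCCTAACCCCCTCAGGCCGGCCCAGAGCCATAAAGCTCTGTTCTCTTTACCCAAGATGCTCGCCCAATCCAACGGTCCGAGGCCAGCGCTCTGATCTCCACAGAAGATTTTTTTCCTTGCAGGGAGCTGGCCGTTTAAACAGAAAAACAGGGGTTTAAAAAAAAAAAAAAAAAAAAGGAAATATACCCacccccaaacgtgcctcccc
SEPTIN7, chr7:35800736-35800985, plus strand: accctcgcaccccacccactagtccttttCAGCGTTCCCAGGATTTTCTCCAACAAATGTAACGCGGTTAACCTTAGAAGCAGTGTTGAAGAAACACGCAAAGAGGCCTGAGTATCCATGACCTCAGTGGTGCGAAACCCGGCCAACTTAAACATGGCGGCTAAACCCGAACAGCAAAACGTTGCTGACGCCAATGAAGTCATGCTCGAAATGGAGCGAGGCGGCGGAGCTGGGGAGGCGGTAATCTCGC
SPIC, chr12:101475086-101475335, plus strand: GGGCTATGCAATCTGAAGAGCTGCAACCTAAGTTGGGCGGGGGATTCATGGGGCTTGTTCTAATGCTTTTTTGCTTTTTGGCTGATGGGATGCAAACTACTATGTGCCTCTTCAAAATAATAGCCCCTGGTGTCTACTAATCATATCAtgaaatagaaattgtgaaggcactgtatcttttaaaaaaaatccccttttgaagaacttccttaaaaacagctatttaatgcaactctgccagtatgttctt
The air promoters belonged to CSNK1G3, a casein kinase 1, ACADM, the medium-chain acyl-CoA dehydrogenase, SNX3, a sorting nexin of endosomes, and PDCL3, a phosducin-like chaperone.
CSNK1G3, chr5:123511927-123512176, plus strand: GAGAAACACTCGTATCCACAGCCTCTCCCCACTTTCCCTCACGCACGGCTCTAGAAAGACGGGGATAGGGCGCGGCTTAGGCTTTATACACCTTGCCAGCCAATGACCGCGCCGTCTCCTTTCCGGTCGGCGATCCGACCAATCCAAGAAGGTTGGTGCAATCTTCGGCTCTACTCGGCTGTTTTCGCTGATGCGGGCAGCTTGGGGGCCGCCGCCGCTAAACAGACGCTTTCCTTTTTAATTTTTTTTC
ACADM, chr1:75724459-75724708, plus strand: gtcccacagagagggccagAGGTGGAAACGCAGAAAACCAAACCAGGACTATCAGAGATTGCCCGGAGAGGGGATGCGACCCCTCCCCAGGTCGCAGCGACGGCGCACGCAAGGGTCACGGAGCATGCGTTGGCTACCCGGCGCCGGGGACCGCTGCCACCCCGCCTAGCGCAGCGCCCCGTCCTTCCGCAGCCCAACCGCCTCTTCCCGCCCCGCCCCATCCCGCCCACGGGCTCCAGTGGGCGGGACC
SNX3, chr6:108261041-108261290, minus strand: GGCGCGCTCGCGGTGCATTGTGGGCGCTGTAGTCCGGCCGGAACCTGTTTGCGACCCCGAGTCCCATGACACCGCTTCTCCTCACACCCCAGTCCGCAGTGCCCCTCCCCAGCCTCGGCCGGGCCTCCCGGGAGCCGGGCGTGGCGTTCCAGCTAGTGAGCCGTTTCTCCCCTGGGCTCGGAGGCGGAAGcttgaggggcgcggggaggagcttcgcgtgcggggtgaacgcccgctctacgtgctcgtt
PDCL3, chr2:100562743-100562992, plus strand: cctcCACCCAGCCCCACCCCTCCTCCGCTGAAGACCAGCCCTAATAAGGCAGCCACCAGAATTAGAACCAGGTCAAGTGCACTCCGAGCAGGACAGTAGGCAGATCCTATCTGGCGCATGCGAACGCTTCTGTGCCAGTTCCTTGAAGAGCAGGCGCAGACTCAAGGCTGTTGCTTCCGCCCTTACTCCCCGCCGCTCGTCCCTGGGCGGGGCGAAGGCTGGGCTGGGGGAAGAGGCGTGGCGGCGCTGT

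The 8 stretches ranged from a CpG-poor promoter at SPIC, with 1 CpG and 39.2% G+C, to 29 CpG and 70.8% G+C at SNX3. RSU1 held 25 CpG and CSNK1G3 21. Peaks covered 229 of the 250 bases at RSU1 and all 250 at CSNK1G3, but 148 at SPIC. The summit fell 4 bp inside the gene at RSU1 (fold 5.91, the authors' enrichment of fragments over background) and 124 bp upstream of the start at CSNK1G3 (fold 6.19). The other 6 had folds between 4.30 and 4.69. In all, peaks overlapped the 300-base promoter (250 bases before to 50 after the start) of 44 genes in smoke and 40 in air, and covered it whole at 3 and 1.

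Most of these peaks rested on few DNA fragments. The deposited fold and −log10 p of every member were matched, to within 0.001 in −log10 p, by 1 whole number of fragments at the summit and 1 background level. The median was 6 fragments in both libraries, and a count of 6 has an interval of 2.20 to 13.1. Members ranged from 4 to 14 fragments in smoke and from 3 to 13 in air, and 103 smoke and 99 air members had 8 or more. The lowest background of a list stood under 200 smoke members (0.861 fragments) and 216 air members (0.724). At those levels 6 fragments give a fold of 3.76 in smoke and 4.06 in air, so equal counts carried unequal folds in the lists.

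By the deposited values the members were weak peaks, much like the rest of their list. The median fold was 3.76 in smoke members and 3.76 in the other smoke peaks, and 3.85 against 3.93 in air. A q of 0.05 or lower was listed for 38.4% of smoke members (33.7 to 43.4) and 44.5% of the other smoke peaks. In air both shares were 60.4%. The highest −log10 q was 4.42 in smoke members against 65.8 among the other smoke peaks, and 4.72 in air members against 8.23. Members are far fewer than the other peaks, so their maximum can be lower for that reason alone. A −log10 q of at least 2 was listed for 16.3% of smoke members and 17.3% of the other smoke peaks. In air the shares were 22.8% and 25.1%. Median width was 238.5 bp in smoke members and 287 bp in air members.

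Taken over all gene ends, smoke summits were sparser than in the sequence around them. Within 1 kb of an end the smoke density was 5.24 summits per Mb (4.72 to 5.79). It was 6.39 (5.96 to 6.85) at 1 to 3 kb and 6.96 (6.68 to 7.25) at 3 to 10 kb, and 7.91 over the whole length of the chromosomes. Over all ends the smoke interval did not overlap those farther out. By class, smoke intervals at 5′ and 3′ ends did overlap those at 1 to 3 kb, 6.15 (5.52 to 6.83) and 6.37 (5.73 to 7.06). Those at ends of unknown strand did not, 3.03 (2.23 to 4.01) against 5.46 (4.64 to 6.39). In air the density was 6.96 (6.37 to 7.59) at the ends, 6.98 (6.53 to 7.46) at 1 to 3 kb and 7.43 (7.14 to 7.73) at 3 to 10 kb, against 8.91 over the whole length, and the intervals at and around the ends overlapped. The windows within 1 kb made up 2.39% of the chromosomes, and members made up 1.58% of smoke peaks (1.43 to 1.75) and 1.87% of air peaks (1.71 to 2.04).

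**Figure D1:**
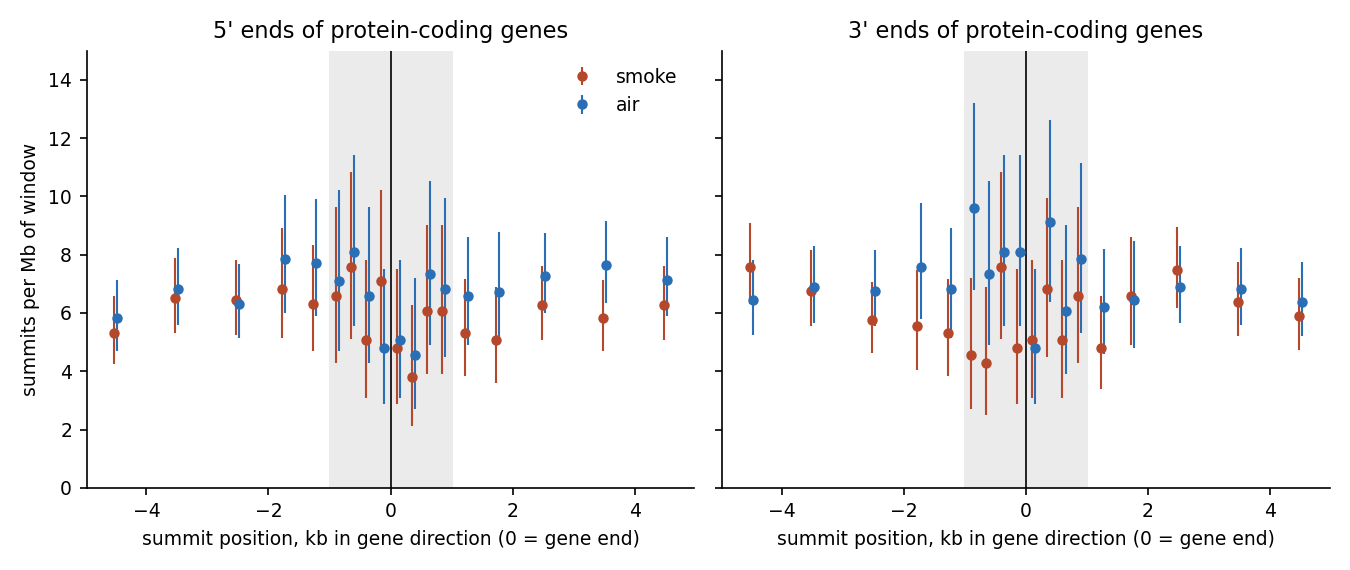
Density of peak summits (per Mb of window, vertical axis) against position along the gene in kb (horizontal axis, 0 at the gene end, grey within 1 kb), for smoke (red) and air (blue), at the 5′ and 3′ ends of 15812 genes with known strand. Points are windows with exact 95% Poisson intervals. Windows were not merged, and a summit near several ends counts once for each. No window stands out as a peak at the 5′ end of the gene span. The highest air window at 3′ ends, 750 to 1000 bp inside the gene, stands at 9.61 per Mb (6.80 to 13.2). The window 250 to 500 bp beyond the end stands at 9.11 (6.38 to 12.6).

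At 5′ ends the densities of the libraries were close, 5.81 per Mb in smoke (4.97 to 6.75) and 6.18 in air (5.31 to 7.15). Within 250 bp of a start, 44 smoke and 38 air members at 5′ ends had their summit. Counted once for each start it was near, a summit could enter more than once. These counts were 47 in smoke and 39 in air, 5.93 (4.36 to 7.89) and 4.92 (3.50 to 6.73) per Mb of unmerged windows. Neither value lay above that of 1 to 5 kb upstream, 6.21 in smoke and 6.69 in air. No pile-up of this antibody's summits at the 5′ ends of gene spans was detectable with these counts. The start here is that end, and listed transcription starts can lie elsewhere. Within 1 kb of a listed start lay 146 of 166 smoke and 163 of 178 air members at 5′ ends. The profile around listed starts was not tested.

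At 3′ ends air stood higher than smoke, 7.89 per Mb (6.92 to 8.96) against 5.63 (4.82 to 6.55), a ratio of 1.40 beside 1.13 for the lists as a whole, and these intervals did not overlap. With summits counted once for each end they were near, in unmerged windows, the gap was wider inside the gene than beyond it. The last 1 kb of the span gave a count of 131 in air, 8.28 per Mb (6.93 to 9.83), and of 84 in smoke, 5.31 (4.24 to 6.58). The 1 to 5 kb before it held 6.83 per Mb in air (6.20 to 7.51), whose interval overlapped that of the last 1 kb. Just outside the 3′ end the densities were 6.95 in air and 5.88 in smoke, with overlapping intervals. Ends of unknown strand differed too, with 98 air summits, 6.18 per Mb (5.01 to 7.53), and 48 smoke summits. Whether these gaps would recur between replicate libraries was not tested.

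Placed at their nearest end, 166 smoke members lay at 5′ ends, 166 at 3′ ends, 47 at ends of unknown strand and 1 at ends of unlike kind. In air 178 lay at 5′ ends, 230 at 3′ ends, 96 at ends of unknown strand and 1 at ends of unlike kind. Of members with known strand, 166 of 332 were at 5′ ends in smoke (44.7% to 55.3%) and 178 of 408 in air (43.6%, 38.9 to 48.5). Few peaks covered the gene end itself: 23 and 27 smoke peaks covered a 5′ and a 3′ end, and 21 and 31 air peaks did. Some members had an end of another kind of gene nearby, such as a long noncoding RNA or pseudogene, within 1 kb: 10.3% of smoke members and 9.70% of air members, against 3.48% and 3.64% of the other peaks. Without exon annotation, exon, intron and UTR positions were not assigned.

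The strongest smoke peak at a 5′ end lay in FAT1, an atypical cadherin, on chromosome 4 from 186725844 to 186726132. Its summit was 703 bp inside the gene, its fold 6.11, its −log10 q 4.42, and it held 14 fragments (7.65 to 23.5). The air list had no peak within 1 kb of it. RGMB, a co-receptor of bone morphogenetic proteins, had a smoke peak 557 bp upstream of its start with a fold of 6.37. ZKSCAN7, a zinc finger gene, had one 708 bp inside the gene with a fold of 5.84. RSU1, ABCE1 and WDHD1, described above and below, completed the 6 smoke peaks of highest −log10 q at 5′ ends, which had folds between 5.69 and 6.37. None of the 6 had an air peak within 1 kb, which few smoke peaks had: 5.79% of smoke members and 4.40% of the other smoke peaks.

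At 3′ ends the strongest smoke peak lay 549 bp beyond ZNF570, a zinc finger gene of chromosome 19, at fold 6.45 and −log10 q 4.02. SCAND3, a gene with a SCAN domain, had one 654 bp inside its 3′ end with a fold of 6.42, and it had an air peak within 1 kb. SCGB2A1, a secretoglobin, CD163, the scavenger receptor of macrophages, ZFP37, a zinc finger gene, and NTMT2, an N-terminal methyltransferase, followed with folds of 5.73, 5.29, 5.37 and 5.37. Those 4 had no air peak within 1 kb, like most smoke peaks.

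In air the strongest 5′ peak was that of CSNK1G3, on chromosome 5 from 123511913 to 123512304. NXPE1, SLC39A10, a zinc importer, and ZNF536, a zinc finger repressor, each stood at fold 5.80 and −log10 q 3.10. SYVN1, a ubiquitin ligase that clears misfolded proteins from the endoplasmic reticulum, had a peak 326 bp upstream with a fold of 4.96. FAM25A had one 202 bp inside the gene with a fold of 4.95. Of these 6, SLC39A10 alone had a smoke peak within 1 kb, which 3.76% of air members and 3.90% of the other air peaks had.

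The strongest air peak of all members lay 347 bp beyond the 3′ end of AKAP9, which anchors protein kinase A at the Golgi and centrosome. It ran from 92110890 to 92111142 on chromosome 7 at fold 6.77 and −log10 q 4.72. EFCAB10, PON2, a paraoxonase, and FABP2, the intestinal fatty acid binding protein, each had a fold of 6.38. KIF13A, a kinesin, had a peak across its 3′ end (summit 52 bp inside, fold 5.95), and TRAPPC6B, a subunit of a vesicle tethering complex, had a fold of 5.80. None of these 6 had a smoke peak within 1 kb, which few air peaks had. Among ends of unknown strand, chosen after their values were seen, CD69 (smoke, fold 5.26), PXDNL (air, 6.25) and KRT6A (air, 5.77) had high folds.

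**Figure D2:**
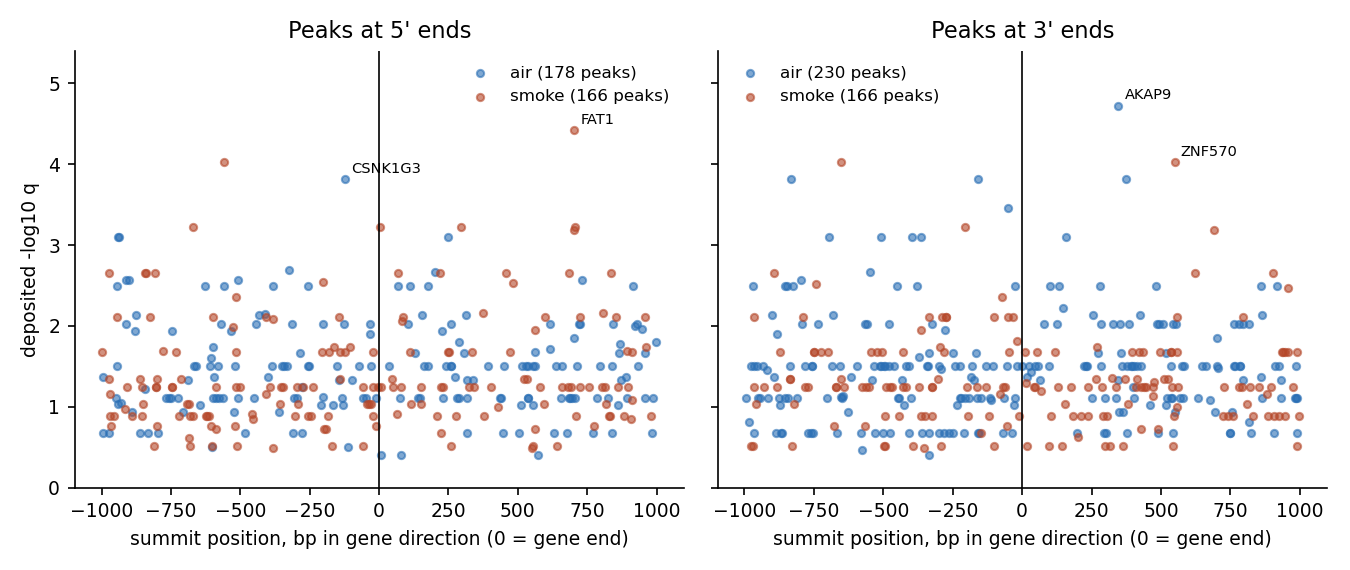
Deposited −log10 q (vertical axis) of each member against the position of its summit in bp along the gene (horizontal axis, 0 at the gene end), for 5′ ends (left) and 3′ ends (right), smoke in red and air in blue. The strongest member of each library is named in each panel (FAT1, CSNK1G3, ZNF570 and AKAP9), and strong peaks lie on either side of the end. Rows of equal values can hold peaks of unlike fragment counts.

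Some summits lay almost on the end itself. The closest to a 5′ end was 2 bp upstream of ZNF573 in smoke (fold 3.63) and 6 bp inside LRPPRC, a stabiliser of mitochondrial mRNA, in air (fold 2.25). At 3′ ends it was 10 bp inside KRTAP12-2, a hair keratin partner, in smoke (fold 3.22) and 1 bp beyond LIPK, a lipase, in air (fold 4.06). These were ordinary or weak peaks by fold. At the edge of the 1000 bp window, the last inside were ZNF90, HTR7 and RNF41 in smoke (999, 997 and 990 bp, folds 3.22, 4.30 and 4.30) and ZNF131, ODF2L and GBP6 in air (999, 996 and 995 bp, folds 4.27, 3.48 and 2.90). The first outside were ZSCAN23, TATDN1 and ALDH18A1 in smoke (1003, 1004 and 1005 bp, folds 4.84, 3.26 and 4.01) and KIF13B and KLHL10 in air (1004 and 1006 bp, folds 3.65 and 4.64).

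Some summits lay near ends of more than 1 gene: 26 smoke and 29 air members were within 1000 bp of ends of 2 or more genes. The nearest end was a 5′ end for 16 of these in smoke and 19 in air, and a 3′ end for 8 and 5. They include overlapping and read-through gene models as well as neighbouring genes. In smoke the strongest lay between ABCE1, the factor that splits ribosomes for reuse, and ANAPC10, a subunit of the anaphase-promoting complex (fold 5.87). The next were shared by WDHD1, a replication factor, and SOCS4, a suppressor of cytokine signalling (5.69), by GCOM1 and POLR2M (5.37), and by GGNBP2 and MYO19, a mitochondrial myosin (5.37). In air they were shared by MAP2K4, a kinase of the stress-activated JNK cascade, and ZNF18 (5.22), by AVL9 and LSM5, a subunit of the RNA-binding LSM ring (5.05), and by ANAPC13 and CEP63, a centrosome protein (4.81). The peak over the ACADM promoter printed above was shared with SLC44A5, whose start lay 848 bp from the summit (4.69). A shared peak cannot be assigned to either gene of its pair.

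The 380 smoke members marked 402 genes, 2.01% of all protein-coding genes, and the 505 air members marked 523, 2.62%. Smoke alone marked 377 genes (1.89%), air alone 498 (2.49%) and both 25 (0.125%). Overlap of the peaks themselves was rarer. Of smoke members, 7 of 380 (1.84%, 0.895 to 3.75) were overlapped by an air peak, beside 1.58% of all smoke peaks. Of air members, 6 of 505 (1.19%, 0.546 to 2.57) were overlapped by a smoke peak, beside 1.41% of all air peaks. Both intervals include the share of the whole list. With so few fragments per peak a site missing from a list is not shown to be unacetylated there.

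Of the 25 genes marked in both, 17 had summits at the same end, 8 at opposite ends, and 6 had peaks that overlapped. At SLC39A10 the summits lay 2 bp apart, 249 bp inside the start in smoke and 247 bp in air. The smoke peak ran from 195613164 to 195613324 on chromosome 2 with a fold of 4.30 and 7 fragments (2.81 to 14.4), and the air peak from 195613138 to 195613413 with a fold of 5.80 and 9 fragments (4.12 to 17.1). The fragment intervals overlapped, so the libraries are not told apart at this site.

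CNTN6, a contactin of neurons, had summits 21 bp apart inside its start, with 9 smoke and 6 air fragments (folds 5.37 and 4.06), and a further air peak 449 bp upstream. TAS2R7, a bitter taste receptor whose whole span is 1.10 kb, had summits 44 bp apart with 7 fragments in each library (folds 4.30 and 4.64). BOD1L1, which protects stalled replication forks, had 8 and 4 fragments (folds 4.84 and 2.61) with summits 173 bp apart. PCDHB4, a clustered protocadherin, had 8 and 6 fragments (4.84 and 4.06) at its 3′ end with summits 248 bp apart. RBSN, an endosomal Rab effector, had 6 and 8 fragments (3.76 and 5.22) beyond its 3′ end with summits 432 bp apart. At each of these 5 genes too the intervals of the counts overlapped. The seventh smoke member with an air partner lay near OR52M1, an olfactory receptor gene, named after its value was seen, and the summit of its partner lay beyond 1000 bp.

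The other genes marked at the same end without overlap were CSNK1G3, CYP39A1 and SLC25A27 (1 shared start region), DEFB131B, GIMAP4, IFI44, KIF2B, NIPBL, RNF41, SLC13A1 and YLPM1. Their summits lay from 313 bp (SLC13A1) to 1437 bp (RNF41) apart. NIPBL, the loader of cohesin, had a smoke summit 336 bp and an air summit 890 bp inside its start (folds 4.30 and 3.60). GIMAP4, a GTPase of lymphocytes, had −log10 q of 2.11 in smoke and 2.02 in air and was the only gene of the 25 still marked in both when −log10 q had to reach 2. Marked at opposite ends were CFAP206, DSEL, HEY2, NHLRC3, OR1F1, PLCZ1, PTGR2 and RIDA. Some of these peaks also lay near ends of other genes. The air peak 600 bp beyond PTGR2 was 533 bp upstream of ZNF410, and the RIDA smoke peak was also near POP1. At HEY2, a Notch target and transcriptional repressor, the air summit lay 316 bp inside the start and the smoke summit 380 bp beyond the 3′ end.

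**Figure D3:**
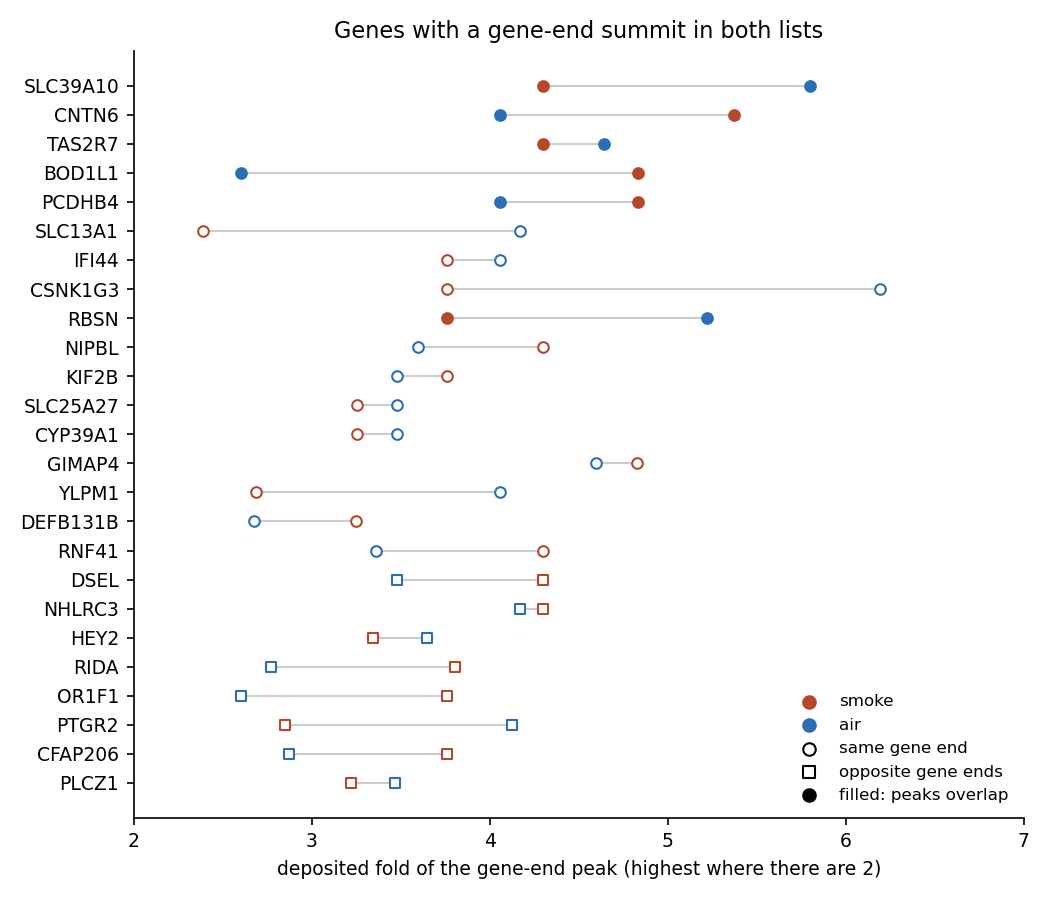
Deposited fold (horizontal axis) of the gene-end peak in smoke (red) and air (blue) for the 25 genes marked in both lists, circles for the same end, squares for opposite ends, filled where the peaks overlap. Folds run from 2.39 at SLC13A1 in smoke to 6.19 at the 5′ end of CSNK1G3 in air (5.22 at the 3′ end it shares with smoke), and neither library is the higher one throughout.

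Several genes had more than 1 gene-end peak within a library, 4 in smoke and 12 in air. In smoke these were ENPEP, an angiotensin-processing aminopeptidase with 1 peak at each end, TAAR2, a trace amine receptor with 1 at each end, FXR1, an RNA-binding relative of the fragile X protein, and HNMT, the histamine methyltransferase, the last pair with both peaks at the 3′ end. The TAAR2 3′ peak lay nearer to the start of TAAR5, 261 bp inside it, than to the TAAR2 end, 664 bp away. 1 of the FXR1 peaks was also near an end of DNAJC19. In air CSNK1G3 stood out with strong peaks at both ends, a fold of 6.19 at the start and 5.22 beyond the 3′ end. DMRTB1, LOC124903185, MRPS17 and PCDHB4 also had 1 air peak at each end. AKAP9 and TRIM59 had both at the 3′ end, and CNTN6, HTR3B, a serotonin-gated channel subunit, and NXPE1 both at the 5′ end. TLR1, a Toll-like receptor (folds 4.69 and 5.22), and C17orf67 had 2 air peaks at ends of unknown strand.

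Genes marked at their ends had longer spans than protein-coding genes at large. The median was 34.8 kb in smoke and 33.7 kb in air, against 24.2 kb over all 19974 genes. With genes ranked by length into 4 equal classes, smoke marked 1.34% (1.06 to 1.70) of the shortest class, up to 8.60 kb, and 2.52% (2.12 to 3.00) of the longest. In air it was 1.96% (1.61 to 2.39) in the shortest class, 3.12% (2.68 to 3.64) in class 3 and 3.02% (2.58 to 3.54) in the longest. The windows at the ends have the same width whatever the length of the gene, although they merge in the smallest genes.

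Marking differed by chromosome. On chromosome 22 no smoke member was found, 0 of 451 genes, which allows a share of up to 0.665% (3 counts of the total), and 3 genes were marked in air. That chromosome held 145 smoke peaks in all. As a share of these the 0 members had an interval of up to 2.58%, which includes the 1.58% of the whole smoke list. Intervals below the share of all genes (2.01% in smoke, 2.62% in air) were found in both lists on chromosomes 19 and 22, in smoke on chromosome 20 and in air on chromosomes 16 and 17. On chromosome 19 the shares were 1.10% of 1451 genes in smoke (0.680 to 1.78) and 1.38% in air (0.894 to 2.12). Intervals above it were found in smoke on chromosomes 5 and 12, with 2.99% (2.06 to 4.31) and 3.03% (2.14 to 4.26). In air they were found on chromosomes 11 and 14, with 3.92% (2.99 to 5.12) and 4.13% (2.81 to 6.03). The other chromosomes' intervals included it. Over so many chromosomes and 2 lists, some intervals can leave it out through counting error alone. As a share of peaks, smoke members were 1.37% (0.931 to 2.02) on chromosome 5 and 2.10% (1.47 to 2.98) on chromosome 12, intervals that include 1.58%. In air they were 3.81% (2.90 to 4.99) on chromosome 11 and 2.31% (1.55 to 3.45) on chromosome 14. Of these 2, only the second interval includes the 1.87% of the whole air list. Chromosome 19 also carried few peaks of any kind, and of those 5.54% in smoke and 6.76% in air were at gene ends, the highest shares of any chromosome in either list.

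Sorted by 38 symbol-based families, which held 4476 genes, members marked 94 family genes in smoke and 126 in air. No family had a smoke share whose interval left out the share of all genes, 2.01%. In air 4 families did, all above 2.62%: C2H2 zinc fingers, olfactory receptors, taste and vomeronasal receptors and kinesins. Over 38 families and 2 lists, some intervals at this level can leave out the background through counting error alone.

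C2H2 zinc finger genes, DNA-binding factors many of which silence transposable elements, were marked at 24 of 566 genes in air (4.24%, 2.87 to 6.23) and 13 in smoke (2.30%, 1.35 to 3.89). No zinc finger gene was marked in both, and 0.125% of all genes were. The strongest in air were ZNF536 (fold 5.80), ZNF18 and ZNF200 (5.22 each) and ZNF585A (4.98), and in smoke ZNF570 (6.45), ZKSCAN7 (5.84), ZFP37 (5.37) and ZNF589 (5.26). Air summits stood at 10.9 per Mb within 1 kb of their ends (6.98 to 16.2) and at 6.47 (5.29 to 7.84) at 1 to 10 kb, with overlapping intervals. For smoke the values were 5.90 (3.14 to 10.1) and 7.78 (6.47 to 9.26). The air share depended on the window: within 500 bp it was 1.41%, near the 1.25% of all genes, and within 3000 bp 8.83% beside 7.20%. In smoke these were 1.06% beside 1.04% and 7.77% beside 6.20%. Among peaks reaching a −log10 q of 2, 5 zinc finger genes were marked in each list (0.883%), beside 0.355% of all genes in smoke and 0.601% in air.

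Olfactory receptor genes, odorant receptors that lie in dense clusters, were marked at 20 of 392 genes in air (5.10%, 3.33 to 7.75) and 9 in smoke (2.30%, 1.21 to 4.31). OR2B6 (fold 5.22), OR1E1 (5.001), OR4C15 (4.99) and OR10Q1 (4.64) were the strongest in air, and OR8A1 (4.30) in smoke. OR1F1 was marked in both, at opposite ends. Their surroundings were rich in peaks of both lists: at 1 to 10 kb the density was 12.5 per Mb (10.04 to 15.5) in each library. At their ends it was 14.7 in air (8.97 to 22.7) and 6.61 in smoke (3.02 to 12.5). The air share stayed above that of all genes within 500 bp (3.32% beside 1.25%), within 3000 bp (11.2% beside 7.20%) and for peaks reaching a −log10 q of 2 (1.28% beside 0.601%). In smoke it was 1.02% beside 1.04% within 500 bp and 10.2% beside 6.20% within 3000 bp, and no olfactory receptor gene was marked at that −log10 q.

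Taste and vomeronasal receptors had 3 of 31 genes marked in air (9.68%, 3.35 to 24.9) and 2 in smoke (6.45%, 1.79 to 20.7), namely TAS2R7 in both, TAS2R31 and TAS2R9 in air and TAS2R8 in smoke, all of the bitter type. Kinesins, motors of microtubules, had 3 of 39 in air (7.69%, 2.65 to 20.3), KIF13A, KIF26A and KIF2B, and 2 in smoke, KIF20A and KIF2B. These counts are small and their intervals wide.

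The intervals of the other families included the share of all genes in both lists, many of them because they were wide. Solute carriers, membrane transporters of small molecules, were marked at 10 of 364 genes in smoke (2.75%) and 12 in air (3.30%), with SLC39A10, SLC13A1 and SLC25A27 in both. SLC5A12 (fold 4.30) and SLC25A13 (3.83) were among the strongest in smoke and SLC7A8 (4.98), SLC26A4 and SLC44A5 (4.69 each) in air. Mitochondrial ribosomal proteins had 3 of 77 in smoke (3.90%, 1.33 to 10.8) and 4 in air (5.19%, 2.04 to 12.6), among them MRPS10 in smoke and MRPL47 in air. Protocadherins and cadherins had 4 of 93 in each list (4.30%, 1.69 to 10.5), PCDHB4 in both. TMEM genes were marked at 3 and 2 of 233, the TRIM family at 3 and 1 of 77 and potassium channels at 2 and 2 of 96. Histone genes were marked at 2 and 1 of 92: H2AC15 and H2BC15 shared 1 smoke peak, and H4C3 had an air peak. Ubiquitin proteases, glucuronosyltransferases, chemokines, interferons, forkhead factors and MAGE genes had none in either list, which by the limit of 3 counts allows shares from 3.95% (76 ubiquitin proteases) to 16.7% (18 interferons).

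**Figure D4:**
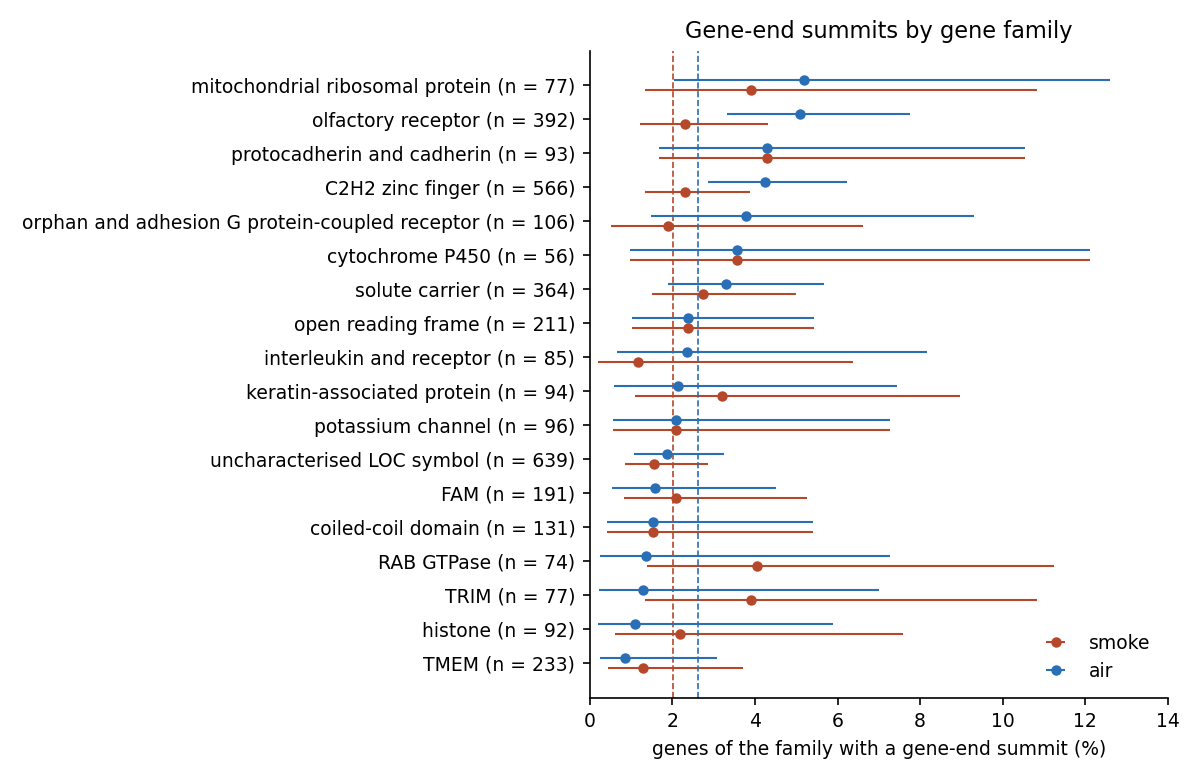
Share of genes with a gene-end summit (horizontal axis, percent) in families of at least 50 genes with at least 3 marked, smoke in red and air in blue, bars for 95% Wilson intervals, dashed lines for the share over all genes (2.01% and 2.62%). Olfactory receptors and C2H2 zinc fingers are the families whose air bars lie wholly right of the air line.

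The promoters with a 5′-end summit were of ordinary composition in smoke and slightly poorer in CpG in air. CpG dinucleotides, which cluster in the islands at most housekeeping promoters, had a median of 7.33 per 100 bases over all 15812 promoters, 7.33 over the 186 with a smoke summit and 6.33 over the 196 with an air summit. The interval of the air median, taken from ranks, was 5 to 7.33 and so reached the median of all promoters. For summits within 250 bp of the start the medians were 6 in smoke and 6.67 in air. Each gene's promoter was the listed promoter closest to the 5′ end of its span, so some promoters did not lie beside the summit. Median G+C was 62.7% over all promoters, 62.3% in smoke and 58.3% in air. With promoters ranked by CpG into 4 classes, smoke marked 1.17%, 1.20%, 1.19% and 1.14% from poorest to richest. Air marked 1.62% (1.27 to 2.06) of the poorest and 0.914% (0.651 to 1.28) of the richest class, and these intervals overlapped slightly.

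**Figure D5:**
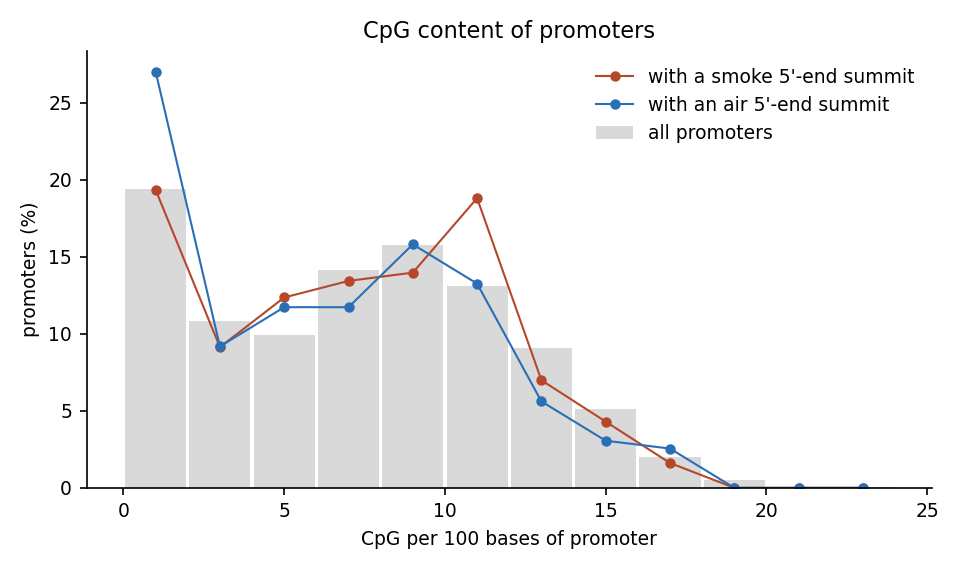
Share of promoters (vertical axis, percent) by CpG per 100 bases (horizontal axis), grey bars for all 15812 promoters, lines for the 186 with a smoke and the 196 with an air summit at the 5′ end. The air line stands at 27.0% in the lowest class, where all promoters have 19.4% and smoke 19.4%.

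Of 7 short motifs searched on both strands of the 300-base promoters, none set the smoke promoters apart from all promoters beyond the counting intervals. The core of the xenobiotic response element, GCGTG, to which the aryl hydrocarbon receptor binds on exposure to smoke components, was in 43.5% of smoke promoters (36.6 to 50.7), 42.9% of air promoters and 44.1% of all. The AP-1 motif TGACTCA was in 1.61% of smoke (0.550 to 4.63), 6.12% of air (3.54 to 10.4) and 3.62% of all promoters. TATAAA was in 9.68%, 13.8% and 9.75%, CCAAT in 38.7%, 38.3% and 36.4% and the GC box GGGCGG in 54.8%, 52.04% and 58.3%. The ETS motif CCGGAAG was in 16.7%, 13.8% and 14.1% and the E-box CACGTG in 5.91%, 8.67% and 8.82%. These matches describe letters in the windows, most of which did not lie under the peak, and show no binding.

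Over all genes 2.01% were marked in smoke and 2.62% in air, so short marker lists could hold few marks or none. Of 15 urothelial marker genes, none was marked in smoke and KRT6A and TP63 were marked in air. Of 5 blood and 4 neuron markers, LYZ was marked in smoke and CD14 and STMN2 in air. Peaks of this mark do not measure expression, so these counts do not bear on the identity of the line.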

How the data were processed

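Chromatin of 2 immunoprecipitated libraries, smoke and air, was analysed from the peak lists the authors deposited, 1 per library. The submitters' processing notes list the aligner Bowtie2, the peak callers MACS and MACS2, and the builds hg38 and mm10; versions and settings were not given in the sources used here. A whole-number score, also deposited, was not used further. The deposited fold is a ratio of fragments plus 1 to background plus 1, and the −log10 p and −log10 q columns, also deposited, hold the peak caller's p-value and q-value. The deposited summit position placed each peak. These are the authors' values and served only to describe or rank peaks within a list. Fragments at the summit were solved from fold and −log10 p, as the whole number whose Poisson tail gave the deposited p. How the lists were selected from all called peaks was not stated, and read depth is unknown.

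Gene spans and promoter sequences came from RefSeq (GRCh38.p14); strand came from the promoter table by gene ID. Windows of 1000 bp around gene ends were merged before densities were computed. A peak took the class of its nearest end. Shares carry Wilson intervals and counts exact Poisson intervals. Members, families and lists were chosen with earlier results of these data known. Named genes are the 6 peaks of highest −log10 q per library and end class, genes marked in both lists or more than once, the 4 strongest peaks near several genes, 3 peaks on each side of the 1000 bp limit, the peaks closest to an end and up to 4 genes per family. Results of some single genes named by this rule are left out here. Scripts (Python 3.11.15, pandas 2.3.3, numpy 2.4.6, scipy 1.17.1) were tested on simulated data. Peaks were shared if they overlapped by at least 1 bp. Alternatives varied the distance, the −log10 q minimum, the overlap, the placement by summit, list size and chromosome X.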

Additional observations from a re-analysis of the deposited data

How the results depend on the processing

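Of 49 alternative values, 22 stayed within the interval or within 1.5 times of the reported one. The share of smoke summits at gene ends was 0.801% within 500 bp, 4.93% within 3000 bp and 1.79% when any base of the peak counted. In air these were 0.911%, 5.11% and 2.14%, and 1.70% for peaks reaching a −log10 q of 2. The share of smoke members at 5′ ends was 61.1% under that limit (33 of 54). A partner within 1000 bp was found for 5.79% of smoke and 3.76% of air members, beside 4.40% and 3.90% of the other peaks. Genes marked in smoke alone, air alone and both were 200, 243 and 7 within 500 bp, 1091, 1292 and 147 within 3000 bp, and 70, 119 and 1 under the −log10 q limit. Median CpG per 100 bases of promoters with a smoke summit was 6 for summits within 250 bp (47 promoters) and 9 under the −log10 q limit (39 promoters). For air the medians were 6.67 and 5.67. A wider or narrower window holds more or fewer summits by construction. The CpG and 5′ values rest on few peaks under these settings. Whether they moved beyond counting error, or why, was not tested. The alternatives for zinc finger and olfactory receptor genes were added after the data were seen, and under the −log10 q limit the zinc finger share was 0.883% in both lists, beside 0.355% of all genes in smoke and 0.601% in air. Leaving out chromosome X, run for the shares of summits at gene ends, and equal list sizes, run for the counts of genes marked, moved neither beyond these limits. Leaving out a replicate could not be done with 1 library per group. No paired analysis was possible because each group was a single library. With a median of 6 fragments per peak, a site present in 1 list and absent from the other is not shown to differ.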
